A study of Rattus norvegicus with 8 samples.

Results

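Inflamed liver is recognised by a small set of secreted and surface proteins, and 10 of their genes are described here rat by rat: the cytokine Il1b, the chemokines Cxcl1 and Ccl2, the leukocyte and acute phase proteins S100a8, S100a9 and Lcn2, the adhesion molecules Icam1 and Vcam1, the endotoxin co-receptor Cd14 and the signalling inhibitor Nfkbia. They were taken by name, from probe sets annotated to exactly 1 gene, out of 14217 genes with such a probe set, and each had 1 probe set. The genes were chosen by these same log2 signals, with earlier results known: which of them stood high in control rat 2, which did not vary, and how the diets differed. Those 3 features are therefore descriptions, and where counts from the fit over all probe sets touch them, nothing is read from those counts.

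Liver RNA came from 8 male Sprague-Dawley rats aged 7 weeks, with 1 Affymetrix array per rat and 4 rats per diet, of 11 fed each diet. For 2 weeks the L. brevis rats ate feed to which the turnip strain Lactobacillus brevis 119-2, freeze-dried and viable, was added at 10 g per kg. The control rats had the same feed without the bacterium, and per the series' design text each kg of either feed held cholesterol (10 g) and cholic acid (5 g), so that all 8 livers were cholesterol-loaded and no group on plain feed is among the samples. On the control arrays the label for the source mentions CRF-1 feed only, and the design text was followed. The series asks how the strain affects cholesterol in the liver, and the members show how inflammatory genes stood in the same livers.

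In liver, Kupffer cells and sinusoidal endothelium meet bacterial products arriving from the gut. Cd14 hands endotoxin to Toll-like receptor 4, which, like the receptor for interleukin-1, releases the transcription factor NF-kappaB from its inhibitor. NF-kappaB then drives cytokines, neutrophil-attracting chemokines, adhesion molecules and, as a brake, the inhibitor gene Nfkbia itself.

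The deposited values are log2 signals, already normalized by the authors, so 1 unit is a doubling of signal, and values of different genes are not compared as amounts. Of 31042 probe sets, 24719 held one value on all arrays to within 0.01 log2. Such a value, called flat here, was set by the processing and carries no measured difference. Varying probe sets were 20.4% of all. The liver identity of the samples was read from varying hepatocyte genes. Apoa1, brighter than 99.9% of probe sets, lay between 13.15 and 13.32 in L. brevis and 13.27 and 13.50 in control livers. Alb (albumin) was flat at 14.55 and so tells nothing of single livers. The L. brevis rat 2 liver stood apart by skeletal muscle transcripts, with Acta1 (skeletal muscle actin) at 12.45, against 5.29 to 5.48 in the other L. brevis livers and 5.08 to 5.54 in control livers. Array medians over all probe sets were 6.61 to 6.63, but most probe sets were flat, so these medians say little of how alike the arrays were. No batch is given in the sources used here, and precision is limited by having 4 arrays per diet.

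One control liver, that of rat 2, carried far more Cxcl1, S100a9 and S100a8 signal than the other control livers. Its Lcn2 signal was 1.14 log2 above their mean, but at 8.03 it stood less far above control rat 4, at 7.48. Il1b, Vcam1 and Nfkbia in control rat 2 were close to the other controls. Of the 10 members, 7 varied and 3 were flat. Among the 7, control rat 2 had the highest of all 8 values for 5 genes, Cxcl1, S100a9, S100a8, Lcn2 and Vcam1. Over all 6323 varying probe sets it was highest in 10.8%. Since this rat's values were part of the choice of genes, nothing is read from that contrast.

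Cxcl1, the main neutrophil-attracting chemokine of the rat, had the widest spread of the members, 4.54 log2. Its signals were 7.55, 7.27, 7.03 and 7.95 in L. brevis rats 1 to 4, and 6.60, 11.14, 6.79 and 8.08 in control rats 1 to 4. Control rat 2 stood far above the rest, and the other 7 livers, of both diets, ran from 6.60 in control rat 1 to 8.08 in control rat 4. Control rat 2 exceeded the mean of the other 3 controls, 7.16 ± 0.81 (SD, n = 3), by 3.99 log2, a 15.9-fold higher signal.

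S100a8 and S100a9 encode the subunits of calprotectin, a calcium-binding protein stored in neutrophils and monocytes, and lie side by side on rat chromosome 2 with 0 annotated protein-coding genes between them. S100a9 had 6.12, 6.33, 8.33 and 6.37 in L. brevis rats 1 to 4, against 6.51, 9.77, 7.41 and 7.03 in control rats 1 to 4. S100a8 had 6.14, 6.33, 7.56 and 6.04 in the L. brevis rats, against 6.18, 8.50, 6.68 and 6.44 in the control rats. Both genes were highest in control rat 2 and second highest in L. brevis rat 3, so each diet had 1 liver with high calprotectin transcripts. Control rat 2 stood above the other 3 controls by 2.79 log2 for S100a9 (6.91-fold) and by 2.07 log2 for S100a8 (4.19-fold). In L. brevis rats 1, 2 and 4 S100a9 was lower than in any control rat, whereas for S100a8 the same rats overlapped the lowest controls.

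Lcn2, which encodes lipocalin-2, a protein that binds bacterial iron carriers and is made by hepatocytes and neutrophils, had 7.73, 7.54, 7.09 and 7.42 in L. brevis rats 1 to 4. Control rats 1 to 4 had 6.71, 8.03, 6.48 and 7.48. The 4 L. brevis livers thus lay between the low controls 1 and 3 and the high control 2. Control rat 2 exceeded the other controls by 1.14 log2, 2.20-fold.

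Calling a member raised in control rat 2 at a difference of 1 log2 or more from the other controls gives these 4 genes. The nearest inside the limit was Lcn2 at 1.14, and the nearest outside was Vcam1 at 0.38. Il1b and Nfkbia differed by 0.29 and -0.08. Of all varying probe sets, 1.52% passed the same limit, and the corresponding share for each of the 8 arrays against the other 3 of its diet ran from 1.09% to 3.72%, so control rat 2 was not the array with the most probe sets of this kind.

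**Figure D1:**
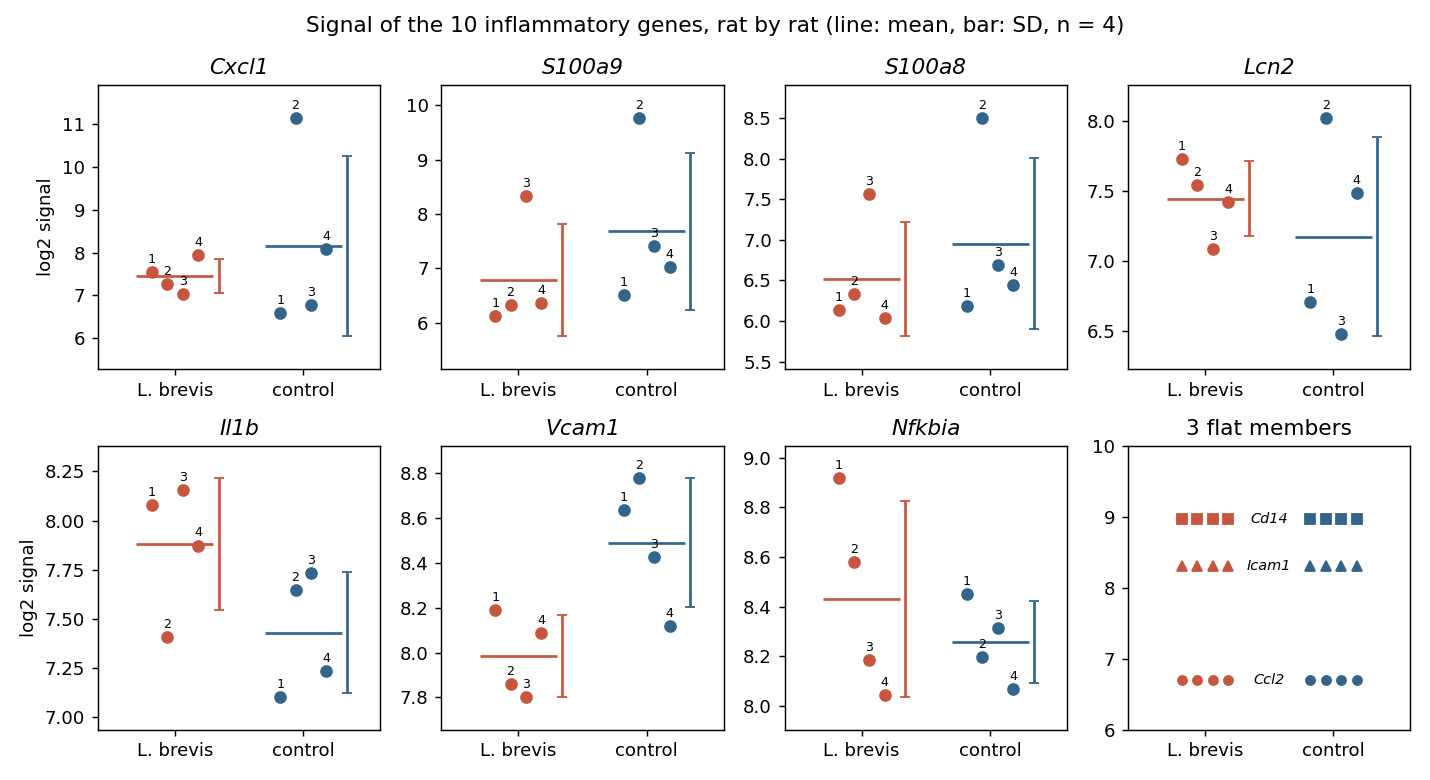
Log2 signal of each gene in L. brevis (red) and control (blue) livers; numbers are rats, lines are means and bars SD (n = 4 each), and the y axes differ between panels. Control rat 2 is far above the rest for Cxcl1 (11.14) and S100a9 (9.77), L. brevis rat 3 is the second highest for S100a9 (8.33), and Cd14, Icam1 and Ccl2 hold one value each.

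**Figure D2:**
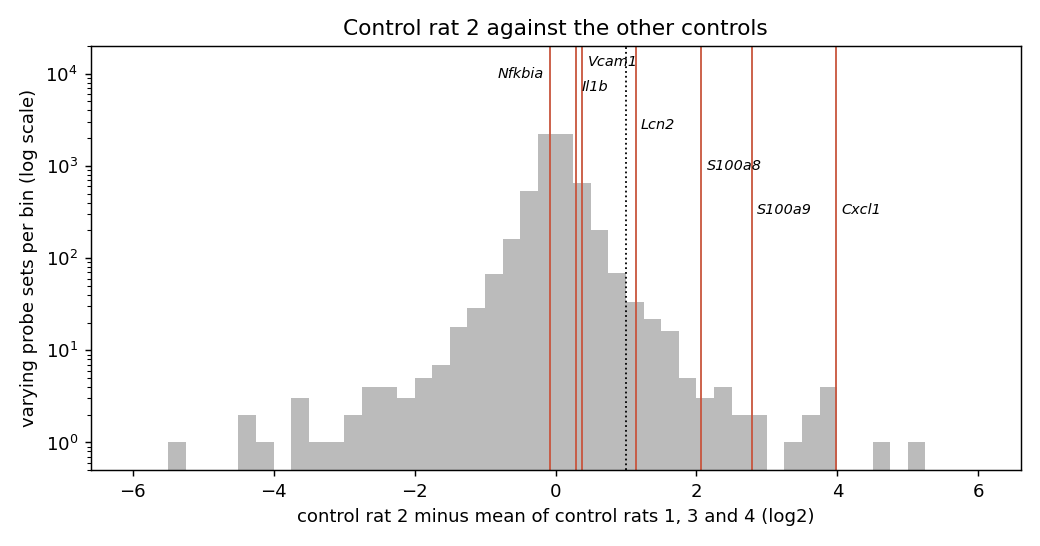
Control rat 2 minus the mean of control rats 1, 3 and 4 (x axis, log2) for all 6323 varying probe sets (grey, log count axis), with the 7 varying members as red lines and the 1 log2 limit dotted. Cxcl1 at 3.99, S100a9 at 2.79, S100a8 at 2.07 and Lcn2 at 1.14 lie past the limit, which 1.52% of the probe sets pass.

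The raised genes did not all move as one across the other rats. S100a8 and S100a9 stayed close in every liver, with Pearson's r of 0.99 over the 8 arrays and 0.96 over the 7 without control rat 2. Cxcl1 and Lcn2 formed a second pair, with r of 0.75 over 8 arrays and 0.78 without control rat 2. Across these pairs the likeness rested on control rat 2: r between S100a9 and Cxcl1 was 0.70 over 8 arrays and -0.30 over the other 7. These are descriptions over few livers that share one normalization, and the genes were chosen with the pattern known. Il1b followed none of them closely, with r of 0.03 to Cxcl1 and 0.18 to S100a9 over the 8 arrays.

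**Figure D3:**
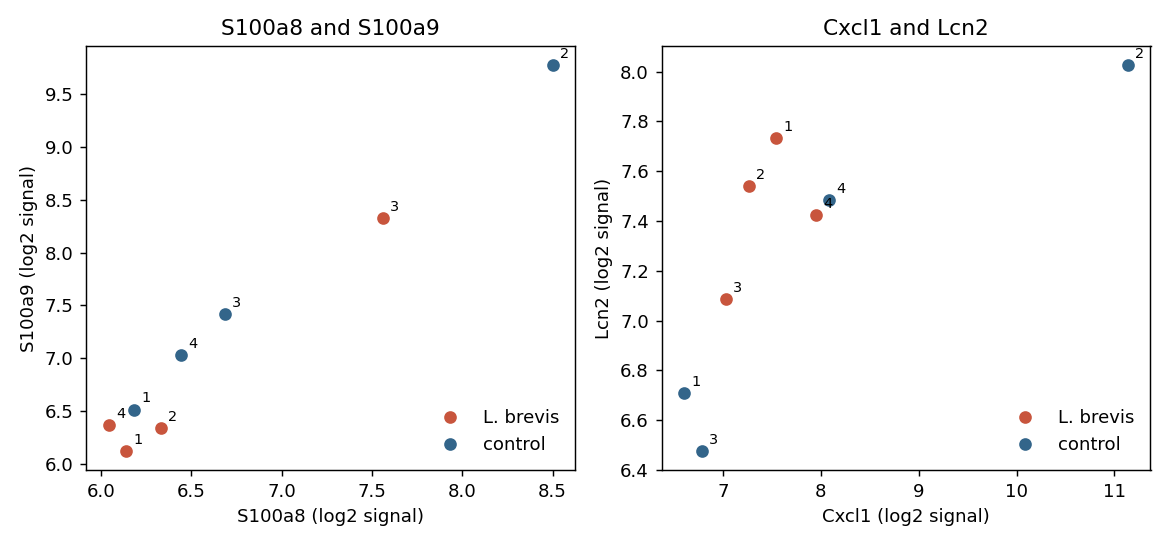
S100a9 against S100a8 (left) and Lcn2 against Cxcl1 (right), log2 signal, 1 point per liver with its rat number, L. brevis in red and control in blue. The calprotectin genes lie along a line with control rat 2 and L. brevis rat 3 at its upper end (r = 0.99), whereas L. brevis rat 3 is among the lower points for Cxcl1 and Lcn2.

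The start regions of Cxcl1 and S100a9 were set beside that of Vcam1, which varied without being raised in control rat 2, because Cxcl1 and Vcam1 are textbook NF-kappaB targets. RefSeq sequences of rat build GRCr8 were found for 8 of the 10 members, and the 250 bases before the start used in that sequence table are given for these 3, whose windows lie outside the gene's extent in the RefSeq gene table. S100a8 and Ccl2 had no entry. The Il1b window also lies outside the gene's extent but is not printed. The windows of Lcn2, Icam1, Nfkbia and Cd14 lie in part or whole inside the gene's extent (71, 157, 235 and 250 of the 250 bases), since the tables differ in the start, and are not printed. Capitals mark matches, on either strand, to the NF-kappaB consensus or to GGGAATTTC, a shorter form of it that was chosen after the windows had been read, and the matches of both overlap in Cxcl1 and Nfkbia.
Cxcl1, chr14:17479322-17479571, minus strand: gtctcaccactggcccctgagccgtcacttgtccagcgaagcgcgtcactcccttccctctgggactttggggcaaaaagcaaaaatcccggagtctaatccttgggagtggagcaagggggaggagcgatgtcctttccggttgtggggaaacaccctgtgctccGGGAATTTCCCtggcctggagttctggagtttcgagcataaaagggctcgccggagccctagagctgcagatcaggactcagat
S100a9, chr2:178490623-178490872, minus strand: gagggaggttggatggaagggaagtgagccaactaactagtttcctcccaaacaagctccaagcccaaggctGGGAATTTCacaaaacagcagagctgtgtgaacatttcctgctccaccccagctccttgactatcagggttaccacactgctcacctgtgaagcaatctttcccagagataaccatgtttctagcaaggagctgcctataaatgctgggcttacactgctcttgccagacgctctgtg
Vcam1, chr2:206742784-206743033, minus strand: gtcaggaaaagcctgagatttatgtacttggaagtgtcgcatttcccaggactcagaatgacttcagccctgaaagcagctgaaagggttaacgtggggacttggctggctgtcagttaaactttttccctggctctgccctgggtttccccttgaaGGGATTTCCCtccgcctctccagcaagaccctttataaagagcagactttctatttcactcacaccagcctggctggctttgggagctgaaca

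The NF-kappaB consensus stood in 4 of the 8 windows, those of Cxcl1, Lcn2, Vcam1 and Nfkbia, and in 6.33% of all 33465 windows of the same length. Textbook NF-kappaB targets are among the members, so nothing is read from this difference. In Cxcl1 the consensus lay 84 to 75 bases before the start and in Vcam1 93 to 84, whereas the Nfkbia match lay inside the gene's extent. GGGAATTTC stood in 3 of the 8 windows, of Cxcl1, S100a9 and Nfkbia, and in 0.239% of all. Since it was chosen after these windows had been read, nothing is read from that contrast. A consensus match was thus found both in genes raised in control rat 2 (Cxcl1, Lcn2) and in genes that were not (Vcam1, Nfkbia). The Il1b window held no match to the consensus or to GGGAATTTC. A match is a description of these letters only.

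Vcam1 and Il1b were not raised by 1 log2 in control rat 2, and their diets overlapped. Vcam1, which encodes the endothelial anchor for lymphocytes and monocytes, had 8.19, 7.86, 7.80 and 8.09 in L. brevis rats 1 to 4, against 8.64, 8.77, 8.43 and 8.12 in control rats 1 to 4. Control rat 2 was highest, and only control rat 4 reached into the L. brevis range. The means were 7.99 ± 0.18 in L. brevis and 8.49 ± 0.29 in control livers (SD, n = 4 each), a difference of -0.50 (SE 0.17). Leaving out any single rat gave -0.63 to -0.41. Of 12 endothelial markers measured 7 varied, and the means of all 7 were on the lower side in L. brevis livers, with none called by limma and 4 at an unadjusted p below 0.05 (median -0.41). Over all varying genes 42.0% had the higher mean in L. brevis livers, and 13.7% were lower at that unadjusted p. The mean level of the 7 markers, centred over the 8 arrays, ran from -0.28 to -0.13 in L. brevis and from -0.02 to 0.50 in control livers. The part of these markers in the Vcam1 difference was not tested. Kdr, a receptor for vascular growth factor, differed by -0.46 (SE 0.10, adjusted p = 0.293, limma) and Egfl7 by -0.14 (SE 0.02, adjusted p = 0.237). Neither overlapped between the diets, as was so for 11.3% of varying probe sets. Fewer cells of a type and less RNA per cell cannot be told apart in whole liver.

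Il1b, which encodes the fever-inducing cytokine interleukin-1 beta, lay the other way. Its signals were 8.08, 7.41, 8.16 and 7.87 in L. brevis rats 1 to 4, against 7.10, 7.65, 7.73 and 7.23 in control rats 1 to 4. L. brevis rats 1, 3 and 4 were above every control, and L. brevis rat 2 was inside the control range. The difference was +0.45 (SE 0.22), from +0.34 to +0.61 with any single rat left out. The highest of these came without L. brevis rat 2, the liver with muscle transcripts. Macrophages are a main source of Il1b. The mean centred level of 13 varying macrophage and Kupffer cell markers was -0.05 to 0.20 in L. brevis livers. Control rats 1, 3 and 4 had -0.19, -0.16 and -0.12, below every L. brevis liver, and control rat 2 had 0.20. The part of these markers in the Il1b difference was not tested.

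Nfkbia, the inhibitor that NF-kappaB induces to end its own activity, had 8.92, 8.58, 8.19 and 8.04 in L. brevis rats 1 to 4, against 8.45, 8.20, 8.31 and 8.07 in control rats 1 to 4. The highest values were those of L. brevis rats 1 and 2, and the diets overlapped. Control rat 2, with the high Cxcl1, had less Nfkbia than 4 of the other 7 livers. The difference was +0.17 (SE 0.21).

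For the 4 genes raised in control rat 2, the diet difference turned on that rat. With all 8 livers Cxcl1 differed by -0.71 (SE 1.05), S100a9 by -0.90 (SE 0.88), S100a8 by -0.43 (SE 0.63) and Lcn2 by +0.27 (SE 0.38). Without control rat 2 the differences were +0.29 (SE 0.45) for Cxcl1, -0.20 (SE 0.64) for S100a9, +0.08 (SE 0.43) for S100a8 and +0.56 (SE 0.30) for Lcn2. Cxcl1 and S100a8 changed sign and Lcn2 grew more than 1.5 times. Other rats mattered less for direction but also moved the size: without L. brevis rat 3 the calprotectin differences were -1.41 for S100a9 and -0.78 for S100a8, and without control rat 1 Cxcl1 was at -1.22 and S100a9 at -1.29. Lcn2 was at +0.04 without control rat 3, and the Nfkbia difference was +0.01 without L. brevis rat 1.

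The diet comparison over all probe sets was a two-sided limma test, called at a Benjamini-Hochberg adjusted p under 0.05. It called 44 of the 31042 probe sets, 0.142%, and only 7 of these, 0.0226% of all, were varying ones. None of the 7 varying members was called by limma, and 1, Vcam1, had an unadjusted p under 0.05, as had 22.9% of varying probe sets. The diets overlapped in all 7, while they did not overlap in 11.3% of varying probe sets. By their means 3 members were higher in L. brevis livers (Il1b, Lcn2, Nfkbia) and 4 lower (Cxcl1, S100a8, S100a9, Vcam1), where 42.0% of all varying genes were higher. Their median difference was -0.43, against -0.02 over all varying probe sets, and +0.15 without control rat 2. The diet difference was part of the choice, so these counts are given beside their background and nothing is read from them.

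**Figure D4:**
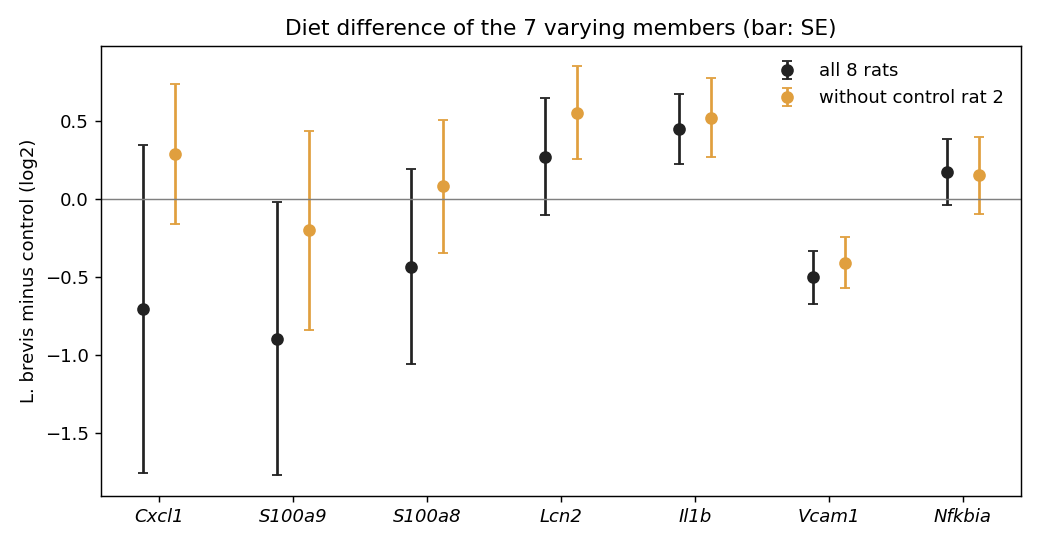
L. brevis minus control (log2, bar: SE from the limma fit) for the 7 varying members with all 8 rats (black) and without control rat 2 (orange). Cxcl1 goes to +0.29 and S100a8 to +0.08 without that rat, while Il1b, Nfkbia and Vcam1 stay on their side of 0.

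Ccl2, Icam1 and Cd14 could not be compared. Ccl2, the chemokine that recruits monocytes, was listed at 6.70 on all 8 arrays, Icam1, the ligand of neutrophil integrins, at 8.31 and Cd14 at 8.97. Flat values say nothing of whether these genes differed between rats.

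Most genes of 11 further lists, of pathway genes and cell type markers without the 10 members, had the same limit. Of 220 listed genes measured, 125 were flat, among them the cytokine genes Tnf, Il6 and Il10, the neutrophil chemokines Cxcl2 and Cxcl3, the receptor gene Tlr4, the NF-kappaB subunit genes Nfkb1 and Rela and the feedback gene Tnfaip3. Over all genes 26.8% varied. None of the 95 varying listed genes was called by limma on all 8 arrays (smallest adjusted p = 0.237), and 12 had an unadjusted p under 0.05, 6 higher and 6 lower in L. brevis livers, 12.6% where 20.6% of all varying genes had one (6.91% higher and 13.7% lower). Without the hepatocyte and skeletal muscle markers 120 of 194 genes were flat, and the same 12 were 16.2% of 74 varying genes.

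In the cytokine and receptor list 7 of 29 measured genes varied, with none called by limma. Before adjustment 1 gene on either side passed 0.05, and the median difference was 0.02, against -0.04 over all varying genes. Il6st, the signalling chain shared by the interleukin-6 family, averaged 10.46 in L. brevis and 10.98 in control livers, a difference of -0.52 (SE 0.19, adjusted p = 0.363, limma). Il1rap, the accessory chain of the interleukin-1 receptor, differed by +0.50 (SE 0.21). Csf1, the macrophage growth factor gene, spanned only 8.50 to 8.56 over the 8 livers. Il1r1, which binds interleukin-1, was highest in control rat 2 at 10.92, 1.32 log2 above the other controls, and differed between the diets by -0.39 (SE 0.49). Il33, an alarm cytokine, was also high in control rat 2 at 9.58, below only L. brevis rat 3 at 9.91.

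Of 30 other chemokine and receptor genes measured, 8 varied, 4 on each side, and none passed 0.05 in limma even before adjustment (median 0.02). Cxcl14 averaged 6.49 in L. brevis and 7.17 in control livers, a difference of -0.69 (SE 0.29), with control rats 2 and 4 highest of all. Ccl6, abundant at 11.37 in L. brevis and 10.91 in control livers, differed by +0.46 (SE 0.24). Ccl21, a lymphocyte-attracting chemokine, differed by +0.25 (SE 0.22). None of these 8 genes exceeded the other controls by 1 log2 in control rat 2, as Cxcl1 did by 3.99.

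Toll-like receptor and NF-kappaB signalling genes varied in 9 of 31, 2 with higher and 7 with lower means in L. brevis livers (median -0.14), and 1 passed 0.05 before adjustment. That gene, Irak1, the kinase next to the receptor adaptor, had 9.78, 9.67, 9.91 and 9.75 in L. brevis rats 1 to 4 and 10.06, 10.47, 10.21 and 10.18 in control rats 1 to 4. The diets did not overlap, yet it missed the adjusted threshold (-0.45, SE 0.10, adjusted p = 0.267, limma). The adaptor gene Myd88 differed by -0.15 (SE 0.11) and the kinase gene Ikbkb by -0.14 (SE 0.11). Nfkbiz and Bcl3, atypical relatives of Nfkbia that steer NF-kappaB in the nucleus, were each highest in control rat 2, at 9.41 and 8.29, which was 1.23 and 1.09 log2 above the other controls.

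In the leukocyte adhesion list 6 of 19 genes varied, 2 with higher and 4 with lower means (median -0.13), and 1 on either side passed 0.05 before adjustment. Alcam averaged 10.21 in L. brevis and 9.37 in control livers, a difference of +0.83 (SE 0.34, adjusted p = 0.420, limma). The endothelial genes Pecam1 and Icam2 differed by -0.26 (SE 0.06, adjusted p = 0.320) and -0.18 (SE 0.08). The selectin genes Sele and Selp were flat.

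Liver acute phase genes, which hepatocytes switch on in answer to interleukin-1 and interleukin-6, varied in 21 of 27. In L. brevis livers 13 had higher and 8 lower means (median 0.07), and 2 of the higher ones passed 0.05 before adjustment. Their mean centred level was 0.02 to 0.10 in L. brevis and -0.52 to 0.30 in control livers, highest in control rat 2. Hamp (hepcidin), with a range of 8.93 log2 and 14.42 in control rat 2, weighed most in that mean, which was not taken without it. The median excess of control rat 2 over the other controls was 0.25 log2, against 0.007 over all varying genes. In this rat 9 of the 21 genes peaked, as did 10.8% of all varying probe sets. The margins of these 9 over the next liver ran from nearly none to moderate. Fgg was 13.8726 against 13.8725 in L. brevis rat 4, and Junb 7.92 against 7.46 in the same rat. Crp and Orm1 were not among those 9. Crp, C-reactive protein, had 10.16, 11.28, 11.23 and 11.37 in L. brevis rats 1 to 4, against 9.85, 9.64, 9.45 and 10.04 in control rats 1 to 4. The diets did not overlap for Crp, and control rat 2 had the second lowest value (+1.26, SE 0.31, adjusted p = 0.320, limma). The Crp difference was +1.54 without L. brevis rat 1 and then passed the threshold (adjusted p = 0.0281), which ran from there to 0.581 over the 14 alternatives. Orm1, alpha-1-acid glycoprotein, had 11.82, 12.00, 11.83 and 12.68 in the L. brevis rats and 9.34, 10.30, 11.12 and 11.27 in the control rats, again without overlap (+1.57, SE 0.48, adjusted p = 0.347). For Orm1, too, control rat 2 was the second lowest of the 8 livers.

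Hamp, the iron hormone hepcidin, was high in control rat 2 at 14.42 but as high in control rat 3 at 14.69, with 5.77 and 7.42 in control rats 1 and 4 and 8.25 to 10.46 in L. brevis livers. Stat3, the factor through which interleukin-6 acts, was highest in control rat 2 at 8.96 and lowest in control rat 1 at 6.86. With Il1r1, Nfkbiz, Bcl3 and the endothelial gene Vwf, these were the 6 of 95 varying listed genes, 6.32%, that exceeded the other controls by 1 log2 in control rat 2 (8.11% without the hepatocyte and muscle markers). Of all varying genes 1.71% did so. The lists were put together with this rat known, and the counts are a description.

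**Figure D5:**
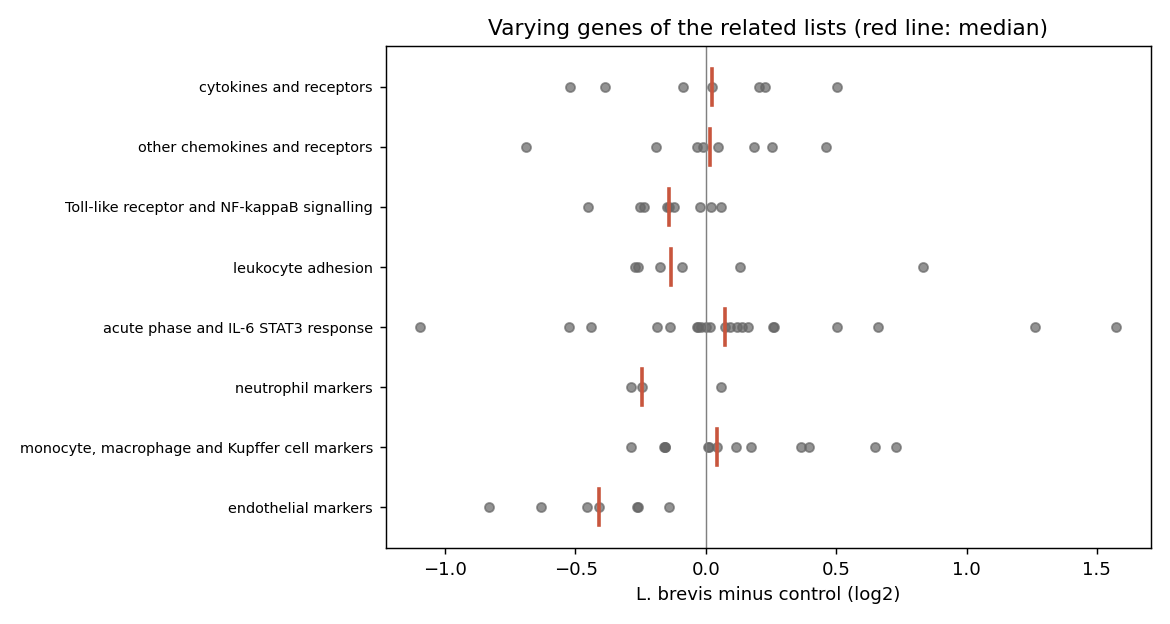
L. brevis minus control (log2) for each varying gene of 8 related lists, with the list median in red. The medians lie between -0.41 for endothelial markers and 0.07 for the acute phase list, and the rightmost points of the latter are Crp at +1.26 and Orm1 at +1.57.

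Neutrophils store calprotectin and lipocalin-2, but few of their other genes could be read. Of 15 measured neutrophil markers 12 were flat, with the receptor genes Cxcr2 and Csf3r at 5.89 and 5.98 and the granule genes Mmp8 and Camp at 6.53 and 6.17. The 3 that varied, S100a6, Lyz2 and Cybb, are also expressed outside neutrophils. Their mean centred level was -0.22 to 0.03 in L. brevis and -0.26 to 0.39 in control livers, highest in control rat 2 and next in control rat 4 (0.24). Cybb, a subunit of the phagocyte oxidase, was 9.49 in control rat 2, against 9.14 to 9.19 in the other controls. S100a6 was also highest in control rat 2, at 8.08, but Lyz2 was highest in control rat 4, at 10.86, against 10.47 in control rat 2. In L. brevis rat 3, the other liver with high S100a9, Cybb was 9.37 and the list's mean was -0.05. The part of neutrophils in the calprotectin values was not tested. Lymphocyte markers were flat in 15 of 18, and the 3 that varied, Ptprc, Cd74 and Prf1, differed by at most 0.09 log2 between the diets.

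Macrophage and Kupffer cell markers varied in 13 of 19, 9 with higher and 4 with lower means (median 0.04), and 2 of the higher ones passed 0.05 before adjustment. Adgre1 averaged 8.29 in L. brevis and 7.64 in control livers without overlap (+0.65, SE 0.17, adjusted p = 0.345, limma). C1qb, a complement subunit made by macrophages, differed by +0.73 (SE 0.28) and was 9.17 in control rat 2, against 8.13 to 8.52 in the other controls. Fcer1g, a signalling chain of Fc receptors, differed by +0.36 (SE 0.16).

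Genes outside the members whose pattern was most like the members' mean were sought among 2523 varying genes with a range of at least 0.5 log2. The 8 highest Pearson correlations over the 8 arrays were those of Unc5cl (0.92), Rbp2 (0.92), Gtf2b (0.89), Actg2 (0.87), Bcl3 (0.87), Trim24 (0.87), Junb (0.85) and Prxl2b (0.85). All 8 were highest in control rat 2, and without that array the same correlations ran from -0.57 for Actg2 to 0.49 for Gtf2b. The likeness thus rested on a single liver. Trim24 was 9.41 in control rat 2, 2.02 log2 above the other controls, and the transcription factor gene Junb 7.92, 0.78 log2 above them.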

How the data were processed

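Log2 signals per probe set were deposited by the authors, and total RNA was purified with Trizol and a column and labelled with a 3' in vitro transcription kit, per the labels' protocols. Summarisation and normalization are not given in the sources used here. The members, lists and limits were chosen with earlier results of these data known.

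Of 31099 probe sets, 57 Affymetrix controls were left out. Platform annotation gave 20826 of the rest 1 gene, 436 several and 9780 none, and symbols were updated by gene identifier. A gene was represented by its brightest probe set with 1 gene.

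The diet comparison used every remaining probe set at once in limma (version 3.58.1, under R 4.3.3) through lmFit and eBayes with an intensity trend, after a test of the code on simulated data. Fold changes are 2 raised to the log2 difference. No 2 arrays of a diet shared an identical varying value. The labels call the 4 samples of a diet biological replicates.

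Named genes were all members and, per list, any called gene, the 3 varying genes with the smallest p and the 2 furthest above the other controls in control rat 2. Alternatives were quantile normalization, no trend, varying or brighter probe sets only, array weights, a replicate block and leaving out each array. Each member had a single probe set, so averaging probe sets could not differ. Tnf, Il6, Il10, Cxcl2, Cxcl3, Tlr4, Nfkb1, Rela, Tnfaip3, Sele, Selp, Cxcr2, Csf3r, Mmp8, Camp and Alb were singled out after their values were seen. The hepatocyte and skeletal muscle lists had medians of 0.00 and 0.49, and no gene of theirs passed an unadjusted p of 0.05.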

Additional observations from a re-analysis of the deposited data

Results flagged for a closer look

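Among the 100 groups of 4 livers looked at (7 members and 43 named genes, each on both diets), 7 had a liver whose gap to its nearest neighbour passed Dixon's 95% limit relative to the group's range, where chance gives about 1 in 20 for groups not picked on their values. Some of these genes were picked for high values in control rat 2, so that rate is no measure of the count. The only member was S100a9, with 8.33 in L. brevis rat 3, against 6.12 to 6.37 in the other L. brevis livers. Control rat 2 passed this limit for no member, Cxcl1 included. Cybb was 9.10 in L. brevis rat 2, against 9.34 to 9.38 in the others of that diet, and 9.49 in control rat 2, against 9.14 to 9.19. Crp was 10.16 in L. brevis rat 1, against 11.23 to 11.37. The other 3 were muscle genes in L. brevis rat 2: Acta1 at 12.45 (5.29 to 5.48 in the others), Myl1 at 10.51 (5.46 to 5.73) and Casq1 at 6.45 (6.05 to 6.11).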

How the results depend on the processing

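No varying member was called by limma under any of the 14 alternatives. The median difference of the 7 members, -0.43, ran from -0.61 to 0.15 with single arrays left out, the latter without control rat 2, and was -0.11 with array weights. Cxcl1 and S100a8 changed sign only without control rat 2, and the other 5 members kept theirs under all 14. Members over 1 log2 in control rat 2 were 4 under quantile normalization as well and 3 against all 7 other arrays, where Lcn2 was at 0.82.

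The number of varying probe sets called, 7, was 19 with array weights, 22 with the replicate block, 4 over varying probe sets only and 0 under quantile normalization. It ran from 3 without L. brevis rat 4 to 49 without L. brevis rat 1, and was 18 without control rat 4. The count of listed genes called was 0 to 1 with single arrays left out (Crp), and that at an unadjusted p under 0.05, 12, was 8 to 17 then and 20 with array weights. The labels do not say that rats of the same number in both diets are paired. Their deviations correlated at 0.36, 0.20, 0.08 and 0.38. L. brevis rats 1, 2 and 4 went best with the control rat of their own number, but rat 3 with control rat 4 (0.40). Seen from the controls, rats 1 and 2 went best with their own number. Control rat 3 went best with L. brevis rat 1 (0.20) and control rat 4 with L. brevis rat 3. No pairing is read from these values. The replicate block changed no call of a member or listed gene.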
